A study of Sus scrofa with 10 samples.

Results

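The slow and fast skeletal muscle troponins (TNNT1, TNNI1 and TNNC1 against TNNT3, TNNI2 and TNNC2) and LSP1, which lies between TNNI2 and TNNT3 in the pig genome, were followed in muscle of Alentejano (AL) and Bísaro (BI) pigs. These are 7 of the 25880 genes in the expression table, and all 7 were among the 1513 genes with a mean normalised read count of at least 50 in each breed. The troponins were chosen by subunit and fibre type, and LSP1 for its place beside TNNI2 and TNNT3 and its breed difference. Breed values and earlier results of these data were known for all 7. LSP1 was chosen by the study on its higher counts in BI. TNNT1 was named there for a trend to a higher level in AL, by sequencing and by qPCR. The AL and BI values of the 7 genes are therefore given as a description with standard errors and without a test. The samples were longissimus lumborum muscle of 5 AL and 5 BI purebred castrated males, both reared free range on commercial feed until slaughter at about 150 kg, with 1 library per pig and no pooling. Each pig keeps the number of its label (AL44, AL46, AL49, AL52, AL63, BI25, BI34, BI36, BI37 and BI42). The age of the pigs is not given in the sources used here.

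Troponin is the calcium switch of the thin filament. Troponin C binds calcium, troponin I holds back the interaction of actin with myosin while calcium is low, and troponin T ties the complex to tropomyosin. Slow and fast fibres use different genes for each subunit, so the slow and fast genes of 1 subunit serve as a readout of fibre character, with the exception that TNNC1 is also the troponin C gene of the heart. LSP1 codes for lymphocyte-specific protein 1, an F-actin binding protein known from leukocytes.

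LSP1 and the fast troponins TNNI2 and TNNT3 share a stretch of chromosome 2. In RefSeq annotation release 106 of Sscrofa11.1, TNNI2 (ENSSSCG00000033260) spans 1251566 to 1253883, LSP1 (ENSSSCG00000031487) 1261957 to 1295891 and TNNT3 (ENSSSCG00000031903) 1297826 to 1316865, all on the plus strand. The gap between TNNI2 and LSP1 is 8073 bp and that between LSP1 and TNNT3 is 1934 bp. LOC110259216, on the minus strand from 1291924 to 1297681, overlaps the last 3968 bp of LSP1 and ends 144 bp before TNNT3. SYT8, 1143 bp before TNNI2, had 0 reads in every pig, which allows up to 3 reads per library (a normalised count of 2.47 to 3.39, for counting error only).

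**Figure D1:**
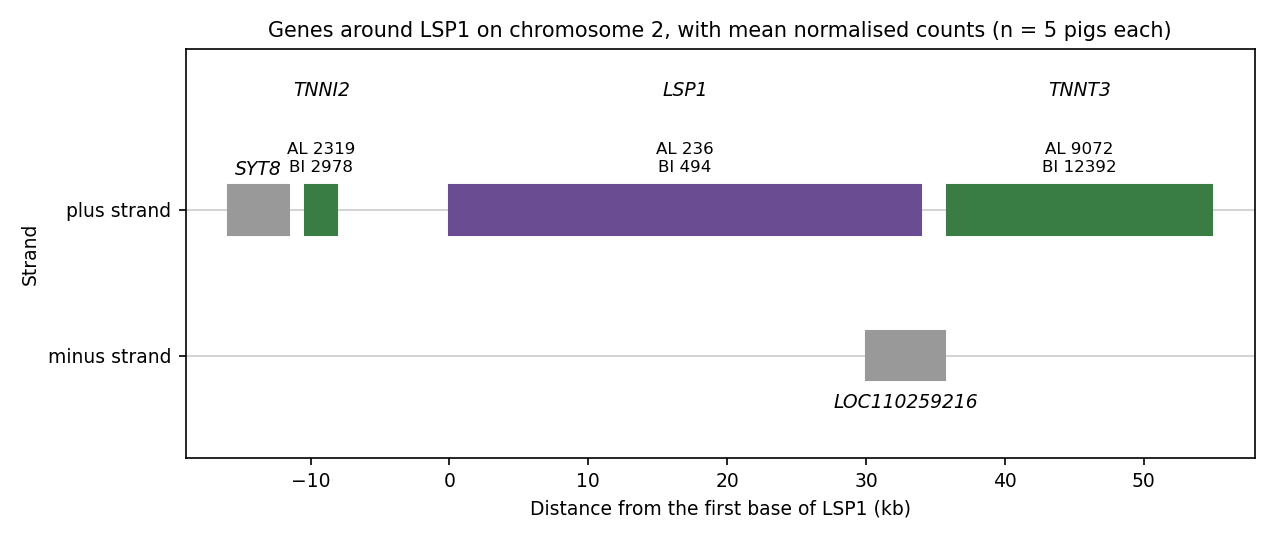
Genes around LSP1 on chromosome 2, drawn by strand against the distance from the first base of LSP1 (kb), with the mean normalised count of 5 AL and 5 BI pigs above each measured gene. LSP1 (236 in AL and 494 in BI) lies between TNNI2 (2319 and 2978) and TNNT3 (9072 and 12392), and the gene on the minus strand overlaps its end.

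The other troponin genes lie apart from this cluster. TNNT1 (ENSSSCG00000025353) is on the minus strand of chromosome 6, from 59351445 to 59365584, 1243 bp from the cardiac gene TNNI3. TNNI1 (ENSSSCG00000024061) is on the minus strand of chromosome 10, from 23788279 to 23800554, and TNNC1 (ENSSSCG00000011441) on that of chromosome 13, from 34591571 to 34594320, where NISCH lies 1467 bp away on the opposite strand. TNNC2 (ENSSSCG00000007424) is on the minus strand of chromosome 17, from 48025621 to 48026762, and overlaps LOC110257453 on the opposite strand by 570 bp.

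The 150 bases before the annotated starts of TNNI2, LSP1 and TNNT3 are shown because these 3 genes are neighbours with different counts, and that of TNNC1 because it holds a motif. Each is written 5′ to 3′ on the strand of its gene from Sscrofa11.1, with motif matches in capitals. The windows are chr2:1251416-1251565 (plus strand), chr2:1261807-1261956 (plus strand), chr2:1297676-1297825 (plus strand) and chr13:34594321-34594470 (minus strand).
TNNI2: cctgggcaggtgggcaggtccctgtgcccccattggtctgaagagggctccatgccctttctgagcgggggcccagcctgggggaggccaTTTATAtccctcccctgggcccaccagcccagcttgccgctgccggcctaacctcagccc
LSP1: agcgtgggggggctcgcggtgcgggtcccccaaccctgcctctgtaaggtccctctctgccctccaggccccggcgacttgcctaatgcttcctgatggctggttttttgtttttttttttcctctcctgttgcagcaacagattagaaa
TNNT3: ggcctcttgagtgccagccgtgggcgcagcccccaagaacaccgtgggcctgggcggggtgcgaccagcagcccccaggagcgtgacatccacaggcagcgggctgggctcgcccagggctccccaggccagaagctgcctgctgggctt
TNNC1: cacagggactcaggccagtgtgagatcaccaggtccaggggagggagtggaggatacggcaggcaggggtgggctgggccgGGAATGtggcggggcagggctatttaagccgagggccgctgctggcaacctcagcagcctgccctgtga

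Motifs were searched on both strands as CAGCTG (an E box, bound by MyoD family factors), CATTCC (the MCAT element, bound by TEAD factors), TATAAA and the MEF2 motif. In TNNI2 the reverse complement of TATAAA begins 60 bases before the start, and in TNNC1 the reverse complement of CATTCC begins 69 bases before it. No match was found in the windows of LSP1, TNNT3, TNNT1 or TNNI1, and TNNC2 was left out because its 5′ end is open in RefSeq. Over the windows of 19557 protein-coding genes, 8.91% held CAGCTG, 5.78% CATTCC, 5.84% TATAAA and 1.34% the MEF2 motif. A match or its absence says only which letters stand in these windows.

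Between 2298045 (AL44) and 3343194 (BI25) reads were counted on genes, and the 10 highest genes took 48.5% (AL44) to 60.3% (BI34) of them. The study reported a far larger average number of sequenced reads per sample, nearly all of them aligned to the genome. The reads counted on genes are thus only a small part of those sequenced. Why the other reads were not counted on a gene was not tested. The 6 troponins together made up 0.397% to 0.703% of the reads on genes in a pig. Markers of skeletal muscle varied in level. ACTA1, the skeletal actin, ran from 5039 to 20532 normalised counts, TCAP from 158 to 494 and MYOT from 27.5 to 41.4. MB and TTN were not paired with a symbol. Cardiac TNNT2 had at most 2 reads in any pig. The libraries were stranded, but the strand setting of the counting is not given in the sources used here. The highest count of the table, 9.87% to 15.4% of the reads on genes, fell on RABEP2, which overlaps the calcium pump gene ATP2A1 by 49 bp on the opposite strand (RABEP2 was chosen after its values were seen). ATP2A1 itself held 0.107% to 0.250% of the reads. Whether the reads of the troponins, of LSP1 or of the other genes named below came from the strand of the gene was not tested.

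All 3 slow troponins had higher means in AL, with log2 differences between 0.68 and 0.78, and all 3 overlapped between the breeds. TNNT1, slow troponin T, had normalised counts of 479 (AL44), 291 (AL46), 327 (AL49), 285 (AL52) and 554 (AL63) in AL and of 293 (BI25), 196 (BI34), 174 (BI36), 204 (BI37) and 278 (BI42) in BI. AL44 and AL63 stood above all other pigs, and the other 3 AL pigs lay near the highest BI pigs. The means were 387 ± 122 in AL and 229 ± 52.9 in BI (SD, n = 5 each), a log2 difference of 0.73 (SE 0.22). Of the BI pigs, 4 were below every AL pig, the exception being BI25.

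TNNI1, slow troponin I, had normalised counts of 163 (AL44), 180.3 (AL46), 123 (AL49), 95.2 (AL52) and 209 (AL63) in AL and of 152 (BI25), 79.3 (BI34), 72.4 (BI36), 74.2 (BI37) and 102 (BI42) in BI. AL49 and AL52 fell within the range of the BI pigs, and BI25 and BI42 within that of the AL pigs. The log2 difference was 0.68 (SE 0.26), from means of 154 ± 45.4 and 96.0 ± 33.3 (SD, n = 5 each).

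TNNC1, troponin C of slow fibres and heart, had normalised counts of 113 (AL44), 101 (AL46), 101 (AL49), 61.4 (AL52) and 136 (AL63) in AL and of 83.2 (BI25), 49.6 (BI34), 45.7 (BI36), 40.1 (BI37) and 83.4 (BI42) in BI. In AL all pigs but AL52 exceeded the highest BI pig. Its log2 difference of 0.78 (SE 0.27) rested on the fewest reads of the 7 genes, 40 to 120 per pig, with means of 103 ± 27.0 and 60.4 ± 21.2 (SD, n = 5 each).

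**Figure D2:**
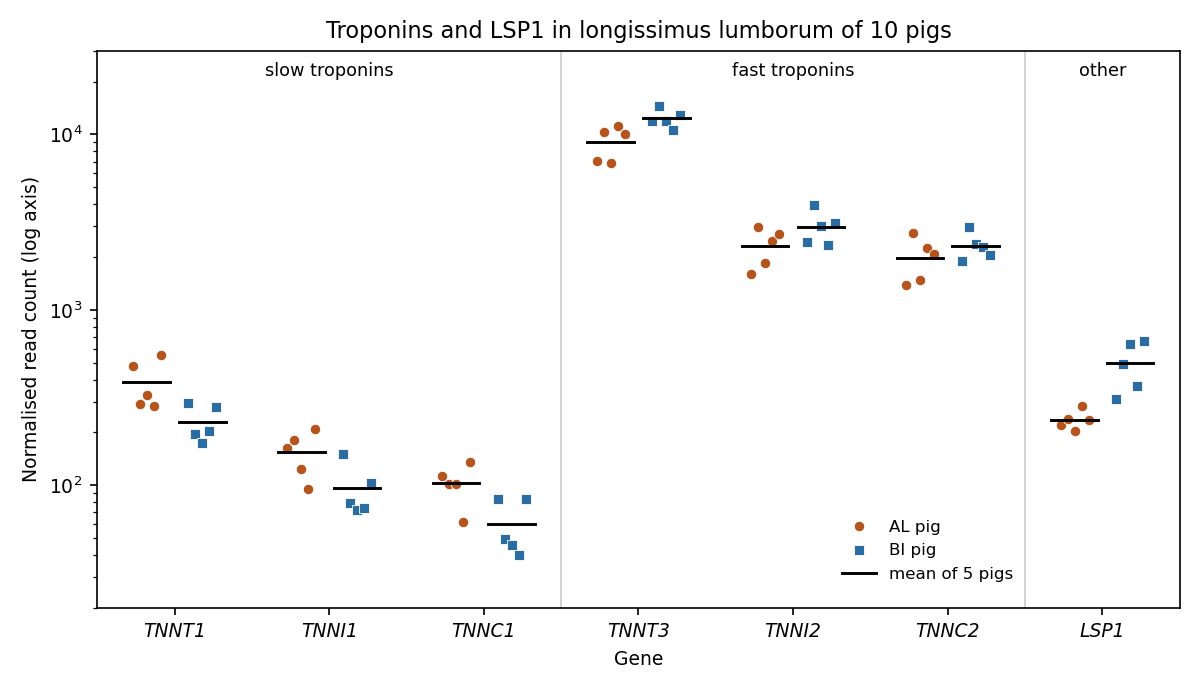
Normalised read count (log axis) of the 6 troponins and LSP1, with 1 point per pig (circles AL, squares BI) and a bar at the mean of 5 pigs. The slow troponins lie higher in AL, the fast troponins and LSP1 higher in BI, and the breeds do not overlap for LSP1.

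The fast troponins had higher means in BI, by less than the slow genes differed. TNNT3, fast troponin T, had normalised counts of 7095 (AL44), 10259 (AL46), 6865 (AL49), 11141 (AL52) and 9999.6 (AL63) in AL and of 11966 (BI25), 14509 (BI34), 11924 (BI36), 10585 (BI37) and 12978 (BI42) in BI. AL44 and AL49 were well below the rest, and BI37 was the one BI pig within the AL range. The means were 9072 ± 1958 and 12392 ± 1457 (SD, n = 5 each), a log2 difference (AL minus BI) of -0.47 (SE 0.16).

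TNNI2, fast troponin I, had normalised counts of 1591 (AL44), 2970.0 (AL46), 1861 (AL49), 2464 (AL52) and 2709.99 (AL63) in AL and of 2438 (BI25), 3967 (BI34), 2998 (BI36), 2349 (BI37) and 3138 (BI42) in BI. The ranges overlapped widely, with AL44 and AL49 lowest and BI34 highest. The log2 difference was -0.37 (SE 0.19), from means of 2319 ± 578 and 2978 ± 650.4 (SD, n = 5 each).

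TNNC2, fast troponin C, had normalised counts of 1376 (AL44), 2738 (AL46), 1489 (AL49), 2248 (AL52) and 2085 (AL63) in AL and of 1894 (BI25), 2967 (BI34), 2376 (BI36), 2269 (BI37) and 2065 (BI42) in BI. AL44 and AL49 again were lowest and BI34 highest. Its log2 difference was the smallest of the 7 at -0.25 (SE 0.19), with means of 1987 ± 562 and 2314 ± 409 (SD, n = 5 each). It was -0.13 without AL44 and -0.38 without AL46, while the value of TNNI2 was -0.25 without AL44.

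LSP1 had the largest breed difference of the 7 genes. Its normalised counts were 221 (AL44), 239 (AL46), 204 (AL49), 284 (AL52) and 234 (AL63) in AL and 311 (BI25), 491 (BI34), 637 (BI36), 367 (BI37) and 665 (BI42) in BI. Every BI pig exceeded every AL pig, and the AL pigs lay close together while BI36 and BI42 stood high. The means were 236 ± 29.8 and 494 ± 158 (SD, n = 5 each), a log2 difference of -1.01 (SE 0.21) or 2.01-fold higher in BI. It remained between -1.16 (without BI25) and -0.89 (without BI42) with each pig left out in turn. LSP1 was the only 1 of the 7 genes without overlap in either direction, against 1.45% of the 1513 genes, and 0.727% were without overlap and higher in BI. As LSP1 was chosen for this contrast, nothing is read from that count.

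The spread between pigs also differed for LSP1. Its coefficient of variation was 12.6% in AL and 31.9% in BI, while TNNT3 had 21.6% in AL and 11.8% in BI. Over all tested genes the median was 22.5% in AL and 18.0% in BI. The highest pig exceeded the lowest 3.26-fold for LSP1, 2.89-fold to 3.39-fold for the slow and 2.11-fold to 2.49-fold for the fast troponins.

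Across all 1513 genes no gene passed limma at an adjusted p under 0.05, that is 0.0% (smallest adjusted p 0.152, Benjamini-Hochberg), while 112 genes (7.4%) had an unadjusted p under 0.05. DESeq2 on the recovered reads of the same genes called 19 and edgeR 0. The study itself reported differentially expressed genes with DESeq2 on its own filtered set of genes. The median log2 difference of all tested genes was -0.05, and 635 of the 1513 had a higher value in AL. A difference at least as large in size as that of LSP1 was found for 18 tested genes with LSP1 counted, for 41 in the case of TNNC1, 46 for TNNT1, 53 for TNNI1, 133 for TNNT3, 224 for TNNI2 and 442 for TNNC2.

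The slow gene's share of the reads of each subunit sets both genes against each other within 1 library, so that the size factor cancels. For troponin T the share of TNNT1 in the sum with TNNT3 was 6.32% (AL44), 2.76% (AL46), 4.55% (AL49), 2.49% (AL52) and 5.25% (AL63) in AL and 2.39% (BI25), 1.33% (BI34), 1.44% (BI36), 1.89% (BI37) and 2.096% (BI42) in BI. The breeds did not overlap, although AL52 and BI25 were next to each other, with 95% Wilson intervals of 2.24% to 2.78% and 2.16% to 2.65% that cover counting error only. The log2 ratio of slow to fast was higher in AL by 1.20 (SE 0.32), or 2.30-fold.

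For troponin I the share of TNNI1 was 9.31% (AL44), 5.72% (AL46), 6.20% (AL49), 3.72% (AL52) and 7.17% (AL63) in AL and 5.85% (BI25), 1.96% (BI34), 2.36% (BI36), 3.06% (BI37) and 3.16% (BI42) in BI. The other 4 BI pigs were below all AL pigs, and BI25 lay within the AL range. The log2 ratio differed by 1.06 (SE 0.36), or 2.08-fold.

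For troponin C the share of TNNC1 was 7.60% (AL44), 3.57% (AL46), 6.38% (AL49), 2.66% (AL52) and 6.11% (AL63) in AL and 4.21% (BI25), 1.64% (BI34), 1.89% (BI36), 1.74% (BI37) and 3.88% (BI42) in BI. AL46 and AL52 were within the BI range, while AL44, AL49 and AL63 were above it. The log2 ratio differed by 1.03 (SE 0.42), or 2.04-fold.

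**Figure D3:**
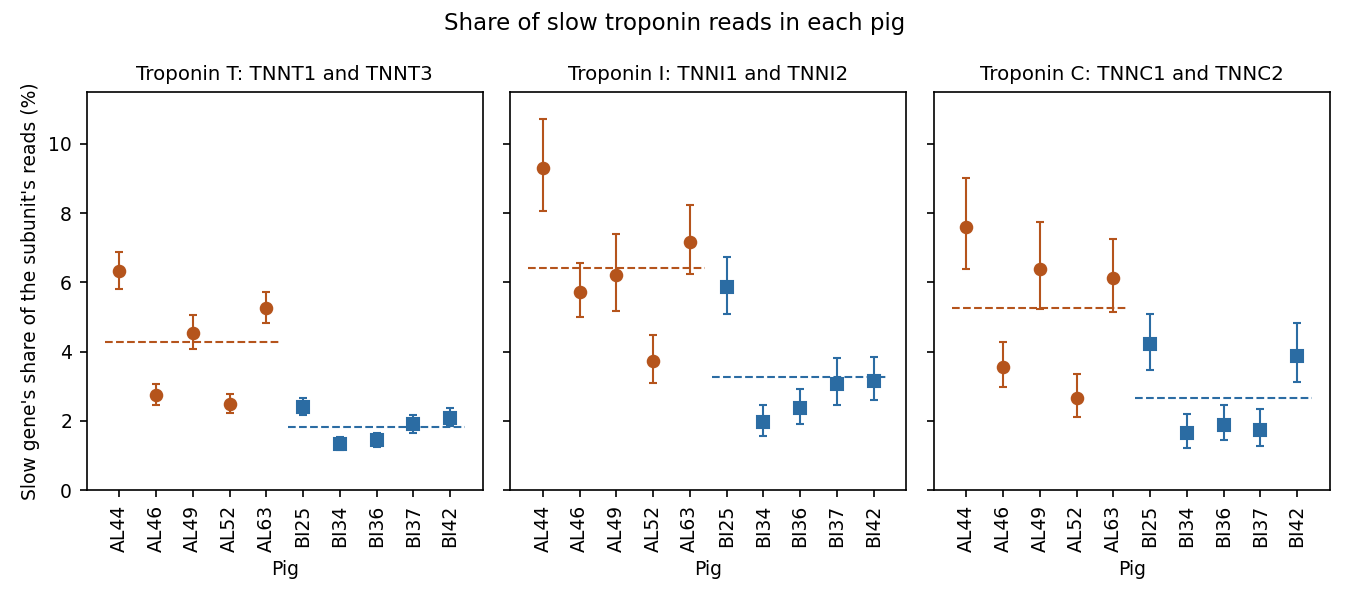
Slow gene's share of the reads of troponin T, I and C (%) in each pig, with 95% Wilson intervals that cover counting error and dashed lines at the breed means. AL44 has the highest share in all 3 panels and BI34 the lowest, and the breeds are apart only for troponin T.

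The 3 subunits placed the pigs in nearly the same order. AL44 had the highest slow to fast ratio and BI34 the lowest in each, AL63 and AL49 took the next 2 places in each, and BI25 was the BI pig with the highest ratio in each. Over the 10 pigs the log2 ratios had a Pearson r of 0.94 (Spearman rho 0.96) between T and I, 0.93 (rho 0.88) between T and C and 0.92 (rho 0.94) between I and C. After the breed mean was subtracted r was 0.86, 0.89 and 0.85. No gene enters more than 1 ratio, but the ratios of a pig share its library. The ratios also moved with technical measures of the libraries: r with the share of reads on the 10 highest genes was -0.62 for T, -0.59 for I and -0.53 for C (rho -0.37, -0.27 and -0.28), and with the log2 number of reads on genes -0.62, -0.42 and -0.49 (rho -0.54, -0.47 and -0.43). Of the single genes, TNNT3, TNNI2 and TNNC2 had r of 0.70, 0.71 and 0.60 with the share of the 10 highest genes (rho 0.59, 0.37 and 0.15). The part of these measures in the ratios was not tested.

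Summed over the 3 subunits, slow troponins held 4.80% ± 1.72 of the troponin reads in AL and 2.17% ± 0.665 in BI (SD, n = 5 each). The AL pigs ran from 2.71% (AL52) to 6.98% (AL44) and the BI pigs from 1.49% (BI34) to 3.14% (BI25), so that the breeds overlapped. In bulk muscle, fewer fibres of a type and less RNA per fibre cannot be told apart.

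Levels of different genes are compared per kb of exon, while the shares and percentages of reads in other passages are not corrected for gene length. Per kb of all annotated exons, the fast gene exceeded the slow gene 14.7-fold in AL and 33.7-fold in BI for troponin T, 26.9-fold and 55.9-fold for troponin I and 19.8-fold and 40.3-fold for troponin C. TNNT3 has 42 annotated transcripts, and its exons sum to 3882 bp against a median transcript of 1119.5 bp. With median transcript lengths, an alternative added after seeing the data, the ratios were 20.4-fold and 46.8-fold for T, 24.3-fold and 50.4-fold for I and the same as before for C. Among the fast genes the order depended on this choice. On all exons TNNT3 was lowest in AL, at 2337 ± 504 normalised counts per kb (SD, n = 5), below TNNI2 at 3421 ± 853 and TNNC2 at 4122 ± 1165. On median transcripts TNNT3 was highest, at 8103 ± 1749. TNNI2 and TNNC2, with 1 transcript each, had AL means within 1 SD between pigs of each other. Within a pig, TNNC2 per kb was above TNNI2 in all pigs but BI42 (4284 against 4629).

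The slow troponins varied together from pig to pig, and so did the fast ones. On the log2(normalised count + 1) scale over the 10 pigs, r was 0.87 between TNNT1 and TNNI1, 0.91 between TNNT1 and TNNC1 and 0.94 between TNNI1 and TNNC1 (rho 0.89, 0.90 and 0.90). With the breed mean subtracted these were 0.76, 0.82 and 0.89. For the fast genes r was 0.90 between TNNT3 and TNNI2, 0.80 between TNNT3 and TNNC2 and 0.90 between TNNI2 and TNNC2, with lower rank correlations (rho 0.75, 0.48 and 0.71). Subtracting the breed mean left them at 0.88, 0.82 and 0.89. The pairs of TNNT3 leaned on the low values of AL44 and AL49: without these pigs r was 0.70 for TNNT3 with TNNI2 and 0.27 for TNNT3 with TNNC2. For TNNI2 with TNNC2 r was 0.75 without AL44 and BI34, the pigs farthest from the median of TNNI2. Over all 1143828 pairs of tested genes the median r was 0.01, and the middle 95% lay between -0.72 and 0.76 pooled and between -0.76 and 0.78 with the breed mean subtracted.

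**Figure D4:**
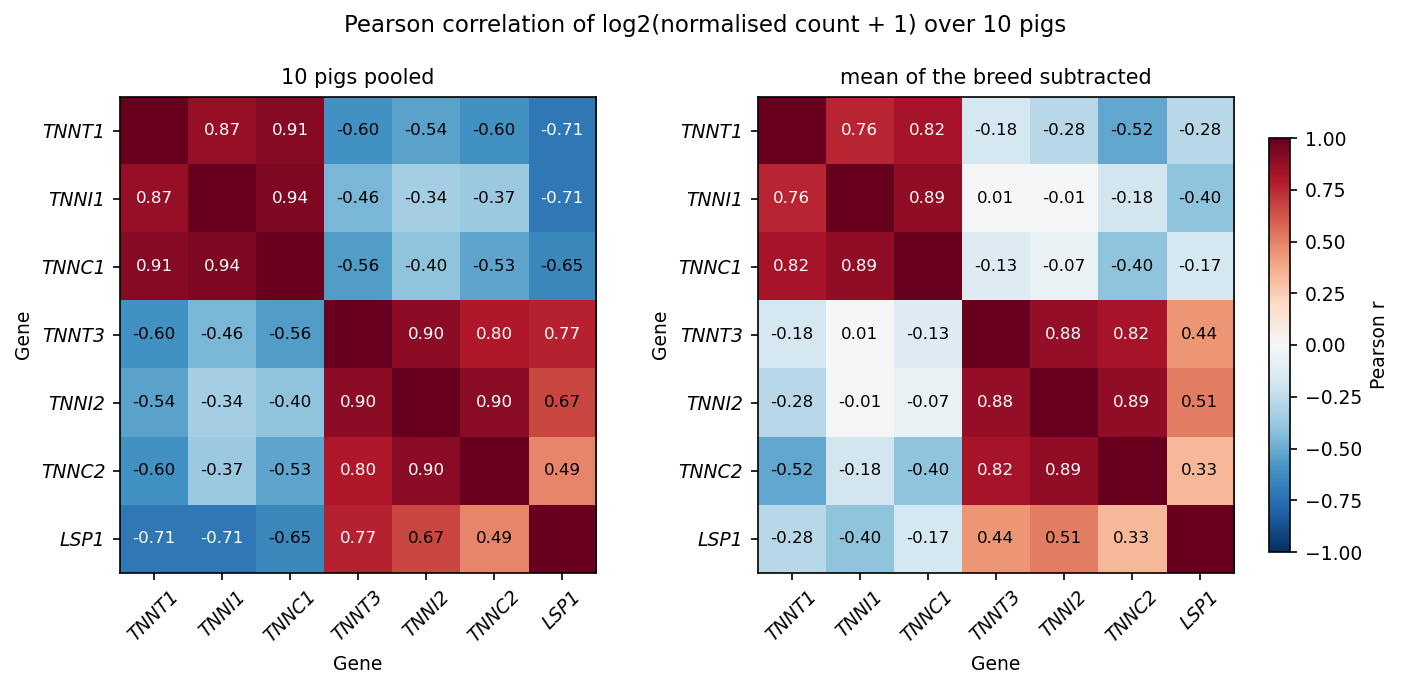
Pearson r of log2(normalised count + 1) between the 7 genes over 10 pigs, pooled (left) and with the mean of the breed subtracted (right). The slow and fast blocks keep r from 0.76 to 0.89 after subtraction, while slow with fast pairs move from between -0.60 and -0.34 to between -0.52 and 0.01.

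Slow and fast genes were negatively related over the pooled pigs, with r from -0.60 (TNNT1 with TNNC2) to -0.34 (TNNI1 with TNNI2). These values leaned on single pigs, the strongest among them. For TNNT1 with TNNC2 r was -0.45 without AL44 and -0.76 without AL63. For TNNI1 with TNNI2 r was -0.18 without BI34, -0.205 without AL44 and -0.67 without AL63 and AL46, the pigs farthest from the median of TNNI1. For TNNC1 with TNNI2 it went from -0.40 to -0.25 without either AL44 or BI34, and for TNNT1 with TNNI2 from -0.54 to -0.34 without AL44. For TNNI1 with TNNC2 it went from -0.37 to -0.24 without BI34 and to -0.62 without AL46. With the breed mean subtracted r was nearer 0 in all 9 pairs, from -0.52 (TNNT1 with TNNC2) to 0.01 (TNNI1 with TNNT3). A pig high in slow troponins relative to its breed was therefore not always low in fast troponins. AL63 shows this, with the highest TNNT1, TNNI1 and TNNC1 of all pigs and a TNNT3 count above the AL mean. AL44 was high in the slow genes with the lowest TNNI2 and TNNC2 of all pigs, and AL49, with the lowest TNNT3 and the next lowest TNNI2 and TNNC2, had slow counts between the AL extremes.

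With the breeds pooled LSP1 had positive r with the fast troponins and negative r with the slow ones, and the breed difference that chose LSP1 enters these values. Its r was 0.77 with TNNT3 (rho 0.89), 0.67 with TNNI2 (rho 0.72) and 0.49 with TNNC2 (rho 0.50), and -0.71 with TNNT1, -0.71 with TNNI1 and -0.65 with TNNC1. With the breed mean subtracted r was 0.44, 0.51 and 0.33 for the fast genes and -0.28, -0.40 and -0.17 for the slow genes, all nearer 0 than with the breeds pooled. The r with TNNC2 was 0.080 over the pooled pigs without AL44 and AL49, against 0.74 with TNNT3 without the same pigs. LSP1 was 21st among the 1512 other tested genes by r with TNNT3, and it was 102nd for TNNI2 and 227th for TNNC2.

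**Figure D5:**
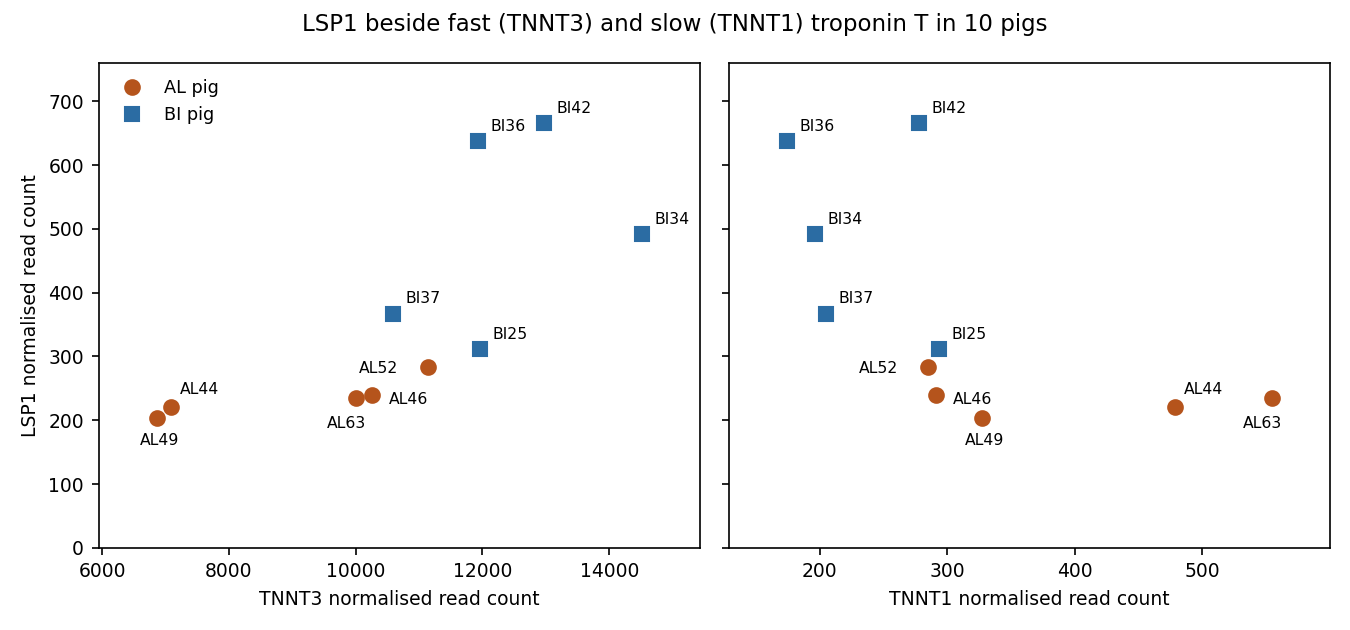
LSP1 normalised count against TNNT3 (left) and TNNT1 (right), 1 labelled point per pig (circles AL, squares BI). LSP1 stays between 204 and 284 in AL while TNNT3 runs from 6865 to 11141, and the highest LSP1 counts (BI36 and BI42) are not at the highest TNNT3 count (BI34).

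Within a pig, LSP1 was not a fixed fraction of its neighbours. Its reads were 2.66% ± 0.363 (SD, n = 5) of those of TNNT3 in AL, from 2.33% to 3.11%, and 3.98% ± 1.19 (SD, n = 5) in BI, from 2.60% (BI25) to 5.34% (BI36). The other 4 BI pigs were above all AL pigs. Relative to TNNI2 the reads of LSP1 were 10.6% ± 2.35 in AL and 16.6% ± 4.37 in BI (SD, n = 5 each), with overlap. For comparison, TNNI2 reads were 25.5% ± 3.08 of those of TNNT3 in AL and 23.8% ± 2.68 in BI, and TNNI1 reads were 41.0% ± 11.9 of those of TNNT1 in AL and 41.4% ± 6.19 in BI (SD, n = 5 each). Reads of LOC110259216 were not analysed here, and its overlap with LSP1 means that reads of the shared 3968 bp could come from either gene if strand was not used. If strand was reversed in counting, reads on LSP1 would come from the strand opposite to it. The same limits hold for TNNC2 and the 570 bp it shares with LOC110257453.

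Since LSP1 is known from leukocytes, a list of 19 leukocyte genes was set beside it. No read fell on 6 of them in any pig (CD3E, CD2, CD79B, MS4A1, FCER1G and LYZ), and 13 had at most 3 reads in every pig, PTPRC, the common leukocyte antigen, among them. CD68, CD14 and ITGB2 had 6 to 64, 2 to 10 and 0 to 4 reads per pig and were not tested. The summed level of the list was 5832 to 6708 normalised counts in the AL pigs and 4317 to 7049 in the BI pigs, most of it ITGAM, an integrin chain of myeloid cells (3518 to 6333). Whether the reads on ITGAM came from its strand was not tested either, so its count is not read here as a level of leukocytes. For the same reason the low counts of the other genes are not read as a lack of leukocytes. Of the 3 tested genes ITGAM was higher in AL (log2 difference 0.15) and CSF1R and CORO1A higher in BI (-0.11 and -0.20), with a lowest limma adjusted p of 0.713. CORO1A, an actin-binding protein of leukocytes, had no overlap between the breeds, as 1.45% of all tested genes did, with means of 410.4 ± 19.3 in AL and 475 ± 56.9 in BI (SD, n = 5 each). No endothelial or adipocyte marker on the lists reached the minimum for a test.

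In these counts, other genes of the slow and fast fibre programmes did not all go with the troponins. Of 12 slow fibre genes outside the troponins 6 were paired with a symbol and 3 tested, all with a higher mean in AL (median log2 difference 0.17), of which 0 passed limma and 1 had an unadjusted p under 0.05. Over all tested genes 635 of 1513 were higher in AL and 7.4% had such a p. The 1 gene was ATP2A2, the slow fibre calcium pump, at 280.01 ± 115 in AL and 149 ± 31.4 in BI (SD, n = 5 each), a log2 difference of 0.80 (SE 0.31) with a limma adjusted p of 0.501. MYH7B, a slow-type myosin heavy chain, differed by 0.15 (SE 0.15), while the slow myosin gene MYH7 was among the genes not paired. Of 12 fast fibre genes 8 were paired and 7 tested, with 3 higher in AL and 4 in BI, a median of -0.02 and none passing limma at either the adjusted or the unadjusted 0.05. The fast calcium pump ATP2A1 and fast alpha-actinin ACTN3 were at 0.13 and 0.02. Whether reads on the fibre genes came from their own strand was not tested. ATP2A1 is the gene that RABEP2 overlaps on the opposite strand.

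Partners of troponin on the thin filament went both ways. Of 9 thin filament genes 6 were tested, 2 higher in AL and 4 in BI (median -0.13, against -0.05 over all tested genes), of which 0 passed limma and 1, TMOD4, had an unadjusted p under 0.05 (7.4% over all tested genes). ACTA1, skeletal actin, differed by -0.44 (SE 0.26) and TPM1, an alpha tropomyosin, by -0.47, next to the -0.47 of TNNT3, while TPM2, a beta tropomyosin, and NEB, the giant filament protein nebulin, were at -0.19 and -0.06. TMOD4, a cap of the pointed filament end, was at 0.41 and LMOD2, a leiomodin, at 0.20. The 5 tested general markers of skeletal muscle (ACTA1, CKM, DES, TCAP and PYGM) all had higher fitted values in BI, with a median of -0.26, of which 0 passed limma and 1, TCAP, had an unadjusted p under 0.05. Of all 1513 tested genes 635 were higher in AL, with a median of -0.05, and 7.4% had such a p. The marker list summed to 8809 to 23868 normalised counts in the AL pigs and 16945 to 32563 in the BI pigs. The part of this shift in the BI values of the fast troponins and LSP1 was not tested.

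The genes most like each troponin over the 10 pigs were found among the tested genes by r, as a description. Nearest to TNNT1 were MYH6 (r = 0.90), ENSSSCG00000031822 (0.88) and LIN37 (0.84). MYH6, named for the atrial myosin heavy chain, had 968 ± 319 normalised counts in AL and 514 ± 183 in BI (SD, n = 5 each). It is a close copy of the slow myosin gene MYH7, which was not paired with an identifier here, so how reads divided between them is uncertain. The study reported a trend to higher MYH7 in AL by sequencing and a higher level there by qPCR. Nearest to TNNI1 were THRA (0.81), P2RX5 (0.81) and PCSK7 (0.77), and nearest to TNNC1 were THRA (0.91), ENSSSCG00000031822 and MYH6 (0.84). Counting the 7 genes too, TNNC1 was first for TNNT1 and for TNNI1, and TNNI1 was first for TNNC1.

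For TNNT3 the nearest were CALM3 (r = 0.96), a calmodulin gene, PCP2 (0.85) and ENSSSCG00000000084 (0.84). CALM3 also led for TNNI2 (0.94), followed by MACROD1 (0.91) and DES (0.91), the muscle intermediate filament desmin. TNNC2 was nearest to AK1 (0.89), the cytosolic adenylate kinase of muscle, CD151 (0.88) and MACROD1 (0.87). For LSP1 the list was ENSSSCG00000031826 (0.94), C11orf68 (0.90) and TCAP (0.86), the titin cap of the Z-disc. TCAP had 205 ± 61.4 normalised counts in AL and 344 ± 115 in BI (SD, n = 5 each), and its r with LSP1 was 0.73 after the breed mean was subtracted.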

How the data were processed

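Longissimus lumborum RNA of 10 pigs was sequenced by the study with 1 stranded library per pig. Per the submitters' processing notes and the methods, the authors used Trim Galore 0.5.0 for trimming, HISAT2 2.1.0 for mapping on Sscrofa11.1 with the annotation of Ensembl release 94, SAMtools 1.9, and HTSeq 0.11.1 for counting. The deposited signal holds, for each pig, gene counts over its DESeq2 size factor. The deposited log2 fold changes, p-values and scores (standard error, Wald statistic) belong to the authors' comparison and were not used. Dividing by the smallest value above 0 gave whole reads for 100% of the values (within 0.01). Libraries of 1 breed differed beyond sampling noise in every pair, with a chi-square of at least 9.73 per degree of freedom.

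The 1513 genes that reached a mean of 50 in both breeds were fitted with limma 3.58.1 (R 4.3.3) on log2(value + 1), which also gave the standard errors of the 7 genes. The script was tested on simulated data. The 7 genes and the gene lists were chosen with earlier results of these data known. One gene of the leukocyte list is not reported here. Named besides were list members, genes within 50 kb of the 7, and the 3 genes nearest to each by r. Symbols were paired for 14857 identifiers, and positions and sequences came from RefSeq by symbol, while the authors counted on Ensembl models. No batch is given, so batches were not examined. The limma p-values set the breed difference against the spread between pigs of a breed, moderated over the tested genes. Alternatives were other pseudocounts, filters and scaling, DESeq2 1.42.0, edgeR 4.0.16 and leaving out each pig.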

Additional observations from a re-analysis of the deposited data

How the results depend on the processing

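No paired analysis was possible because the pig numbers are not shared between the breeds. Across all genes, limma at an adjusted p under 0.05 called 0 of 1513 genes, and also 0 with pseudocounts of 0.1 and 10, with a library size without the 10 highest genes and with edgeR. DESeq2 called 19, limma without a filter called 40 of 14681 genes, and limma on the 3807 genes whose counts summed to 50 or more in either breed called 1. With each pig left out in turn the count ran from 0 to 1, and it was 1 without AL44 and 1 without BI37. The cause of these shifts was not tested. All 144 alternative values of the log2 differences of the 7 genes and of the 3 log2 ratios kept their sign and moved by less than the SD between pigs. For TNNC2 that SD, 0.34, is larger than the difference itself (-0.25), so this measure could not show a loss of the difference. The TNNC2 difference was -0.13 without AL44 and -0.17 with DESeq2. The LSP1 log2 difference ran from -1.16 to -0.89 over the pigs left out, and the log2 ratio differences from 1.03 to 1.38 for troponin T, 0.89 to 1.30 for I and 0.86 to 1.26 for C. Of 294 alternative correlations 2 lay outside the 95% interval of the main value, both without the 2 pigs farthest from the median, where TNNI1 with TNNC2 was -0.83 and TNNT3 with TNNC2 0.27. With 10 pigs these intervals are wide, so the count of 2 says little about stability. For TNNC2 with LSP1 the interval ran from -0.21 to 0.85, and r moved within it from 0.49 to 0.080. The correlation of TNNI1 with TNNT3 changed sign to 0.0054 when the breed mean was subtracted. Few reads limit TNNC1 most, at 40 to 120 per pig, and 5 pigs per breed limit all correlations.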

Other observations

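Apart from LSP1, neighbours of the troponin genes that are not troponins were mostly near 0 where they were paired with an identifier. The others had no value here. STAB1, on the opposite strand 36127 bp from TNNC1, was an exception at 1064 normalised counts in AL and 1190.3 in BI (means, n = 5), and ACOT8, 12864 bp from TNNC2 on its strand, had 777 and 676. SNX21, 6845 bp from TNNC2 on the opposite strand, had 51.7 and 47.7. NISCH, between TNNC1 and STAB1, had 1.38 and 2.46, and PPP1R12C, 4267 bp from TNNT1, had 8.61 and 6.82. UBE2C and DNTTIP1, 4078 bp and 8052 bp from TNNC2 on the opposite strand, had 19.5 and 18.9 in AL against 6.16 and 3.02 in BI, on 136 and 110 reads over all pigs.

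Dixon's ratio placed no pig apart from the other 4 of its breed in any of the 20 groups of 5 values examined (7 genes and 3 slow shares in each breed), where chance alone would give about 1.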
